A study of Mus musculus with 4 samples.

Results

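The clustered protocadherin genes form 3 neighbouring arrays on mouse chromosome 18, named alpha, beta and gamma, and 58 of the 55401 rows of the expression table belonged to them. Members were the rows whose symbol begins with *Pcdha*, *Pcdhb* or *Pcdhg* and ends in an isoform number, and the rule uses no expression value. The rule itself was chosen with earlier results of these data known. The 58 rows were made up of 14 alpha, 22 beta and 22 gamma genes, and the gamma genes divided into 12 of the A type, 7 of the B type and 3 of the C type. They carried 57 symbols, because the gene models ENSMUSG00000007440.10 and ENSMUSG00000102206.5 are both named *Pcdha11*. In mm10 coordinates of the GENCODE M21 annotation, to which all 58 identifiers matched, the alpha genes spanned chr18:36930184-37187661, the beta genes chr18:37264938-37524479 and the gamma genes chr18:37661793-37841873, all on the plus strand.

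Clustered protocadherins are cadherin-like adhesion proteins best known from neurons, where each cell expresses its own combination of isoforms and uses it to tell its own processes from those of other cells. In the alpha and gamma arrays each variable first exon has its own promoter and is spliced to a set of constant exons shared by the whole array, so that isoforms differ outside the cell and share a cytoplasmic tail. Beta genes are single-exon genes with no such shared tail. Most of these promoters hold a site for CTCF, the zinc-finger protein that anchors chromatin loops with cohesin, and pairing of promoter and enhancer through CTCF and cohesin is an established step in the choice of isoform. The C-type isoforms at the end of the alpha and gamma arrays are less tied to stochastic choice than the others.

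RNA was measured in heart tissue of 4 mice at 8 weeks of age, 2 wild-type and 2 *Ctcf* heterozygous, with 1 library from each mouse. The heterozygous mice carried 1 *Ctcf* allele with the R567W substitution (Ctcf +/R567W), a germline change made by CRISPR/Cas9 in a C57BL/6N line that is therefore present in every cell of the heart, whereas the wild-type mice carried none. Values were TPM, the share of a library's transcripts that belong to a gene after correction for transcript length, multiplied to a fixed total. They do not keep the sequencing depth, so no counting interval could be given. Summed over 8 markers, cardiomyocyte RNA reached between 19002 and 23222 TPM after scaling in the 4 hearts.

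The heterozygous TPM values lay lower over the table as a whole, with a median difference in log2(TPM + 1) of -0.35 over the 10036 genes whose mean reached 1 TPM. TPM were therefore divided by median-of-ratios factors, which place the median gene at the same level in each heart (median log2 difference -0.01 afterwards), and these values are called scaled below. *Ctcf* itself, at chr8:105636568-105682922, had 6.66, 7.59, 6.14 and 5.2 TPM in wild-type hearts 1 and 2 and heterozygous hearts 1 and 2, an order kept throughout. After scaling the levels were 6.07 ± 0.116 and 6.60 ± 1.25 TPM (SD, n = 2 each; log2 fold change 0.09, SE 0.16, adjusted p = 0.834), whereas the log2 fold change was -0.29 in the values as deposited. A missense allele need not change the amount of *Ctcf* mRNA, so this value did not check the genotype labels.

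The structure of the arrays limits how far single isoforms can be told apart. Of the exonic bases of each alpha gene, 38.0% to 54.9% also belonged to another member, and for gamma genes the share was 27.8% to 66.8%. Beta genes shared no exonic base with another member, apart from *Pcdhb21* and *Pcdhb22*, whose models overlap by 455 bases. *Pcdhgc4* had a transcript model of 2272 bases, of which 2119 (93.3%) lay in the constant exons. Reads from the constant exons were divided between isoforms by the estimation program, and how that division bears on any single gamma or alpha value was not tested. The sum over an array is less exposed to it than its members.

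Alpha genes were at or near 0 in every heart. In 8 of the 14 the listed TPM was 0 in all 4 libraries, and the highest value of any alpha gene was 0.02 TPM. *Pcdha4* was listed at 0.02, 0.02, 0 and 0.02 TPM in that order. The *Pcdha11* model ENSMUSG00000007440.10 had 0.02, 0, 0.01 and 0 TPM. Among the C-type isoforms, *Pcdhac1* was above 0 in a single library (0.01 TPM in wild-type heart 2) and *Pcdhac2* in none. Since values are rounded to 2 decimals, these entries are 1 or 2 steps above 0, and no alpha gene was compared singly between genotypes. The number of alpha genes above 0 was 5, 3, 2 and 1, which rests on the same rounding steps and was not tested between genotypes. Over all genes the number above 0 was also lower in both heterozygous hearts, at 20573, 20633, 19916 and 20136.

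Beta genes were low but widely detected. Between 18 and 20 of the 22 were above 0 in each heart, 15 were above 0 in all 4, and *Pcdhb1* was at 0 throughout. *Pcdhb20* had the highest mean, with 0.47, 0.47, 0.24 and 0.16 TPM, and both heterozygous hearts lay below both wild-type hearts. *Pcdhb17* came next with 0.39, 0.41, 0.35 and 0.15 TPM, again lower in both heterozygous hearts, but after scaling heterozygous heart 1 (0.426 TPM) lay above the wild-type hearts (0.360 and 0.323 TPM). The mean level followed the position along the array, with Spearman's rho of 0.76 between mean TPM and order over the 22 genes. Within single libraries the same measure was 0.78, 0.79, 0.50 and 0.43, lower in both heterozygous libraries. These values describe genes of the same libraries, which are not independent.

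Most beta RNA belonged to the end of the array nearest to the gamma genes. In a split chosen after the values were seen and so given without a test, *Pcdhb14* to *Pcdhb22* held 86.1%, 84.8%, 74.7% and 74.2% of the beta total. Their summed scaled level was 1.60, 1.67, 1.36 and 0.978 TPM, with both heterozygous sums below both wild-type sums. For *Pcdhb1* to *Pcdhb13*, none of which exceeded 0.15 TPM, the sums were 0.259, 0.300, 0.463 and 0.341 TPM after scaling. The heterozygous sums were the higher ones on that scale, but as deposited the groups overlapped (0.28, 0.38, 0.38 and 0.31 TPM).

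Gamma genes accounted for most of the protocadherin RNA of these hearts. Of 22 genes, 21 were above 0 in every library, and 2 had a mean of at least 1 TPM. *Pcdhgc4*, a C-type isoform known for its part in the survival of interneurons, was the highest, with 4.17, 5.69, 3.55 and 4.69 TPM, and the groups overlapped. *Pcdhga4* followed with 1.33, 1.36, 0.9 and 1.2 TPM, where both heterozygous values were the lower ones as in 67.8% of all genes whose mean reached 1 TPM, while the scaled values of 1.23, 1.07, 1.10 and 1.32 TPM overlapped. The A-type isoforms *Pcdhga1* (0.84, 1.08, 0.52 and 0.36 TPM) and *Pcdhga12* (0.77, 1, 0.51 and 0.38 TPM) had the highest means of the members under 1 TPM. Both were lower in the heterozygous hearts on either scale. The other C-type isoforms differed from *Pcdhgc4* in level: *Pcdhgc3* had 0.76, 1.04, 0.52 and 0.24 TPM, and *Pcdhgc5* 0.11, 0.35, 0.09 and 0.04 TPM. *Pcdhgc3* was lower in both heterozygous hearts on either scale, whereas the *Pcdhgc5* groups overlapped after scaling. Mean level and position in this array gave a Spearman's rho of 0.10 over the 22 genes.

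**Figure D1:**
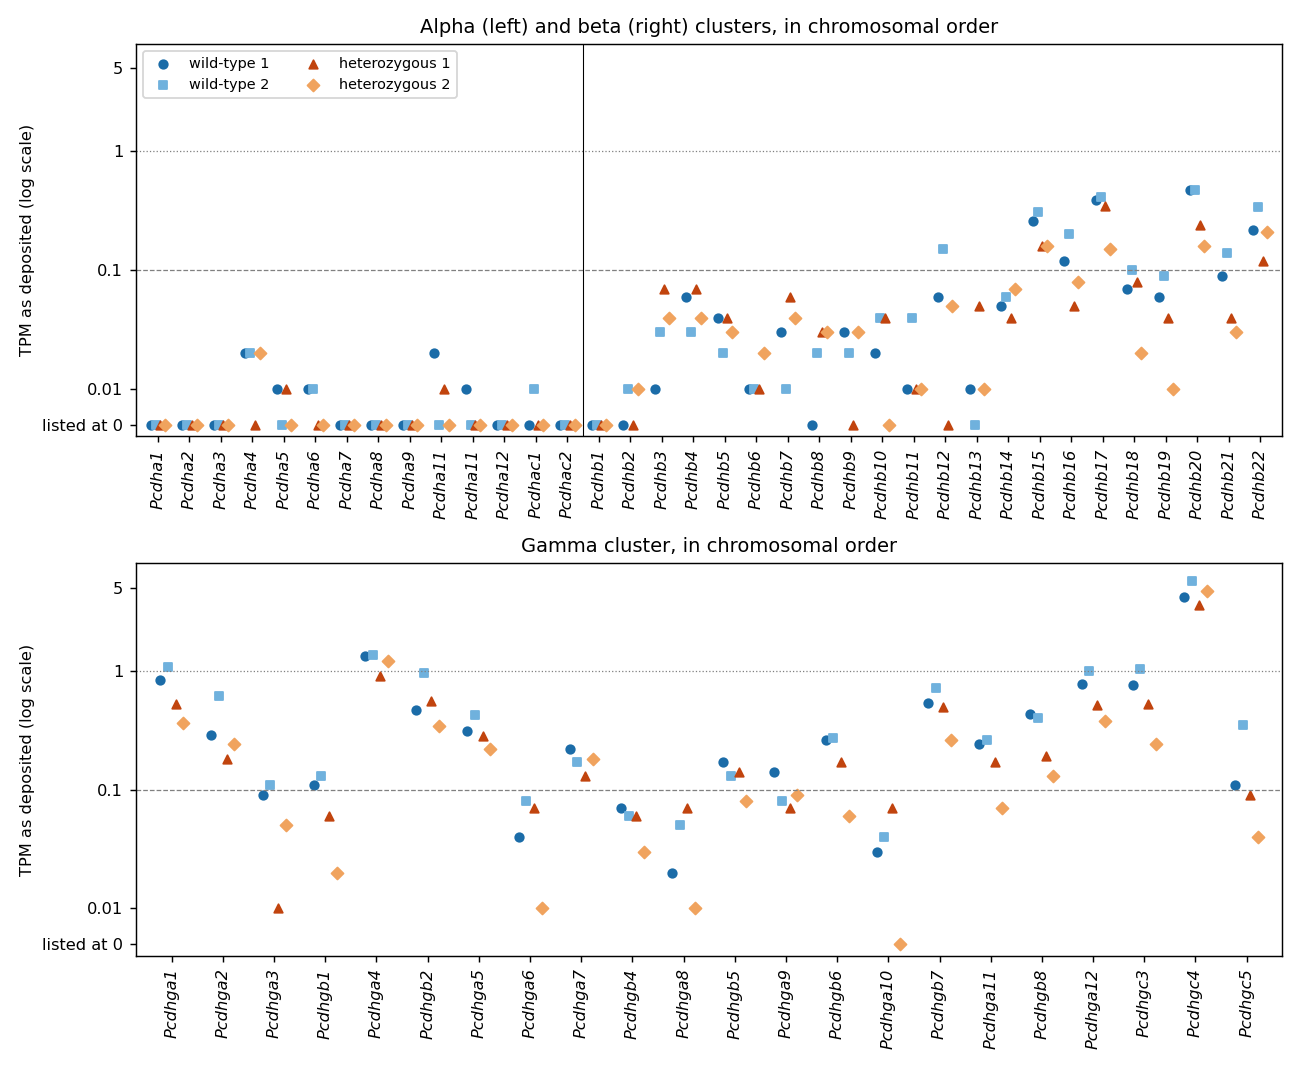
TPM as deposited (log axis, with values listed at 0 placed at the bottom) of each clustered protocadherin in the 4 hearts, 1 symbol per library, in chromosomal order along each array; lines mark 0.1 and 1 TPM. Alpha genes sit at or next to 0, beta levels climb toward *Pcdhb20*, and *Pcdhgc4* stands above every other member at 3.55 to 5.69 TPM.

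Summed over the arrays, scaled levels were close between genotypes for gamma and lower in the heterozygous hearts for beta, with most of the beta difference in heterozygous heart 2. The gamma sum was 10.5, 11.8, 10.7 and 9.56 TPM, or 11.2 ± 0.921 against 10.1 ± 0.832 (SD, n = 2 each), a log2 ratio of -0.14 with overlapping groups. Leaving out heterozygous heart 2 gave -0.05, and leaving out heterozygous heart 1 gave -0.23. The beta sum was 1.86, 1.97, 1.83 and 1.32 TPM, or 1.91 ± 0.0817 against 1.57 ± 0.360, a log2 ratio of -0.28 that came to -0.07 without heterozygous heart 2 and -0.54 without heterozygous heart 1. Both beta values of the heterozygous group lay below the wild-type values, but heterozygous heart 1 did so by a margin smaller than the gap between the wild-type hearts. Alpha sums never exceeded 0.0647 TPM and are made of rounding steps, so their ratio is not read. As deposited, the log2 ratios were -0.59 for gamma and -0.74 for beta with separate groups in each. The general shift of -0.35 is no like measure for them. It was taken on log2(TPM + 1), which draws low genes toward 0, whereas nothing was added to the sums. On log2(TPM + 0.1), over genes whose mean reached 0.1 TPM, the shift was -0.41. In bulk tissue, fewer cells of a type and less RNA per cell cannot be told apart.

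**Figure D2:**
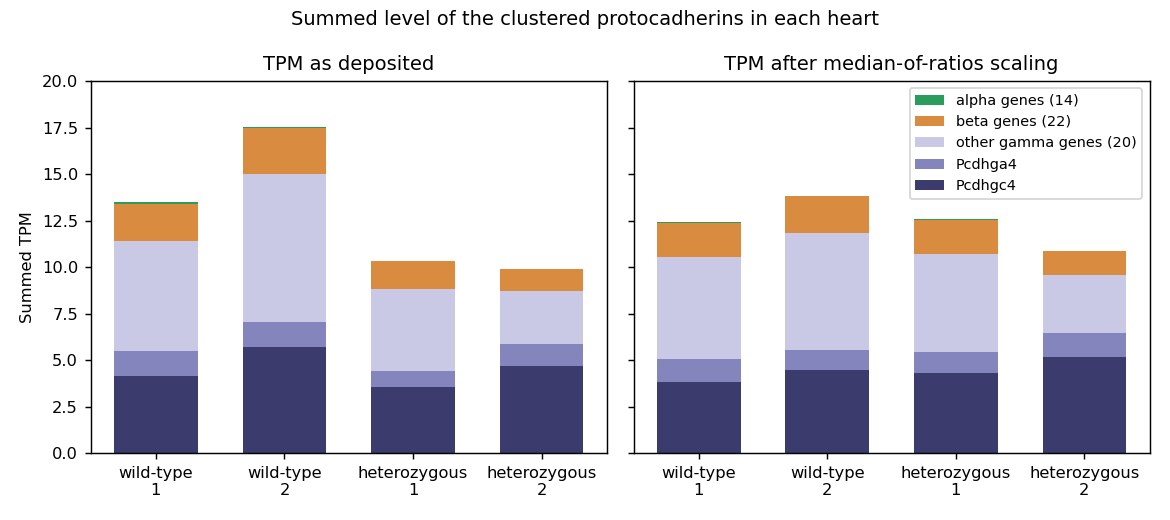
Summed TPM of the clustered protocadherins in each of the 4 hearts, as deposited (left) and after median-of-ratios scaling (right), stacked by array with *Pcdhgc4* and *Pcdhga4* drawn separately. As deposited both heterozygous totals (10.3 and 9.92 TPM) lie below both wild-type totals (13.5 and 17.5 TPM), whereas after scaling heterozygous heart 1 (12.6 TPM) lies between the wild-type hearts.

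Within the gamma array the sums were taken by type, and the difference between types was not tested. A-type genes summed to 3.99, 4.15, 3.63 and 3.09 scaled TPM (log2 ratio -0.28, groups separate), and B-type genes to 1.88, 2.10, 2.03 and 1.01 TPM (log2 ratio -0.39, groups overlapping). C-type genes came to 4.66, 5.59, 5.07 and 5.46 TPM, a log2 ratio of 0.04. The C-type total was carried by *Pcdhgc4*. Without *Pcdhgc4*, the gamma sum was 6.68, 7.35, 6.41 and 4.40 TPM, a log2 ratio of -0.38 that came to -0.13 without heterozygous heart 2 and -0.67 without heterozygous heart 1.

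Shares of the gamma sum need no scaling between libraries, but they depend on how reads of the constant exons were divided between isoforms. A share also rises where the other members fall. *Pcdhgc4* made up 36.6%, 37.9%, 40.3% and 53.9% of gamma TPM, so both heterozygous hearts were above both wild-type hearts. The scaled levels of *Pcdhgc4* itself (3.85, 4.49, 4.32 and 5.15 TPM) overlapped between groups. The mean shares were 37.3 ± 0.958% and 47.1 ± 9.63% (SD, n = 2 each), and the exact two-sided permutation test gave p = 0.333, the smallest value that 2 against 2 allows. The difference of 9.85 percentage points came to 3.04 without heterozygous heart 2 and 16.7 without heterozygous heart 1. *Pcdhga4* held 11.7%, 9.07%, 10.2% and 13.8%, with overlapping groups.

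The comparison between genotypes was tested for every gene whose mean reached 1 TPM, with limma on log2(scaled TPM + 1) and Benjamini-Hochberg adjustment over all 10036 of them. Calls needed an adjusted p below 0.05 together with a change of more than 1.5-fold. Of the 2 protocadherins tested, 0 were called, beside 0.0299% of all genes called lower and 0% called higher in the heterozygous hearts, and neither had an unadjusted p under 0.05, beside 12.3% of all genes. Neither estimate lay under 0, beside 51.6% of all genes. *Pcdhgc4* had a log2 fold change of 0.15 (SE 0.15, adjusted p = 0.692) and *Pcdhga4* one of 0.04 (SE 0.14, adjusted p = 0.930). Both signs depended on the scaling, since the values as deposited gave -0.21 and -0.20. With 2 hearts a group, such p-values do not show that the levels were equal.

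Lowering the limits to a mean TPM of 0.1 and a pseudocount of 0.1 brought in 20 members, 5 beta and 15 gamma, among 15675 genes tested. Again 0 were called, beside 0.0255% of all genes in each direction, and 0 of the 20 had an unadjusted p under 0.05, beside 10.7% of all genes. The smallest adjusted p was that of *Pcdhga1* (scaled 0.776, 0.852, 0.634 and 0.395 TPM; log2 fold change -0.60, SE 0.28, adjusted p = 0.492). *Pcdhgc3* had the largest difference (scaled 0.702, 0.821, 0.634 and 0.264 TPM; log2 fold change -0.73, SE 0.38, adjusted p = 0.522). For *Pcdhb20* the scaled levels were 0.434, 0.371, 0.292 and 0.176 TPM (log2 fold change -0.61, SE 0.32, adjusted p = 0.530), and for *Pcdhga12* 0.711, 0.789, 0.621 and 0.417 TPM (log2 fold change -0.48, SE 0.26, adjusted p = 0.543). In each of these 4 genes heterozygous heart 2 was the lowest library and heterozygous heart 1 the next lowest. *Pcdhgc5* (log2 fold change -0.66, SE 0.50) and *Pcdhb17* (-0.24, SE 0.41) overlapped between groups.

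Although none passed the test, the estimates of the low genes lay mostly on one side. Of the 20, 17 had a log2 fold change under 0, beside 51.9% of all genes tested, and the median was -0.35 beside -0.02. The 3 over 0 were *Pcdhgc4* (0.18), *Pcdhga4* (0.06) and *Pcdhga7* (0.06), the last named after its value was seen. All 5 beta genes tested were under 0 (median -0.26), as were 12 of the 15 gamma genes (median -0.43), which divided into 5 of 7 A-type, 5 of 5 B-type and 2 of 3 C-type genes. The other beta genes had means under the limit and went both ways. Of *Pcdhb1* to *Pcdhb13*, 5 were higher in both heterozygous hearts than in both wild-type hearts after scaling, and 1 was lower. The shares were 22.2% and 22.6% over all genes whose mean reached 0.1 TPM, a level these members did not reach. As deposited, *Pcdhb6* (0.01, 0.01, 0.01 and 0.02 TPM) and *Pcdhb13* (0.01, 0, 0.05 and 0.01 TPM), counted among the 5, overlapped between groups. Such values are a few rounding steps above 0, so the counts are not read further. Among the 18 members between 0.1 and 1 TPM, 17 lay under 0 and the median was -0.43, beside 52% and -0.02 over all 5641 genes in that range. The members share reads, hearts and a chromosomal region, so they are not independent of each other. As deposited, all 20 were under 0 with a median of -0.64, beside a median of -0.41 over all genes.

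Both heterozygous hearts were below both wild-type hearts in 9 of the 20 (45%) after scaling, beside 22.6% of all genes tested, and above them in 0, beside 22.2%. All 9 were among the 18 members between 0.1 and 1 TPM, beside 20% of the genes in that range. The 9 were *Pcdhb15*, *Pcdhb16*, *Pcdhb20*, *Pcdhga1*, *Pcdhga2*, *Pcdhga12*, *Pcdhgb6*, *Pcdhgb8* and *Pcdhgc3*, of which those not described above were named after their values were seen. As deposited the count was 16 of 20 (80%) lower, beside 58.5%, and 0 higher, beside 4.04%. Among the 18 it was 15, beside 41.9%. The limit of 0.1 TPM was set on the mean over the 4 libraries, for members and all other genes alike. *Pcdhb16*, one of the 9, passed it through its wild-type values, since its heterozygous values were 0.05 and 0.08 TPM. The same held for *Pcdhgc5* (0.09 and 0.04 TPM), which was not among the 9 but had an estimate under 0. Heterozygous heart 2 stood apart within its group: it was the lowest of the 4 libraries in 14 of the 20 members, and among the 18 under 1 TPM in 77.8%, beside 24.3% of the 5641 genes in that range. Without it the median of the members tested came to -0.22, and without heterozygous heart 1 it came to -0.52.

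**Figure D3:**
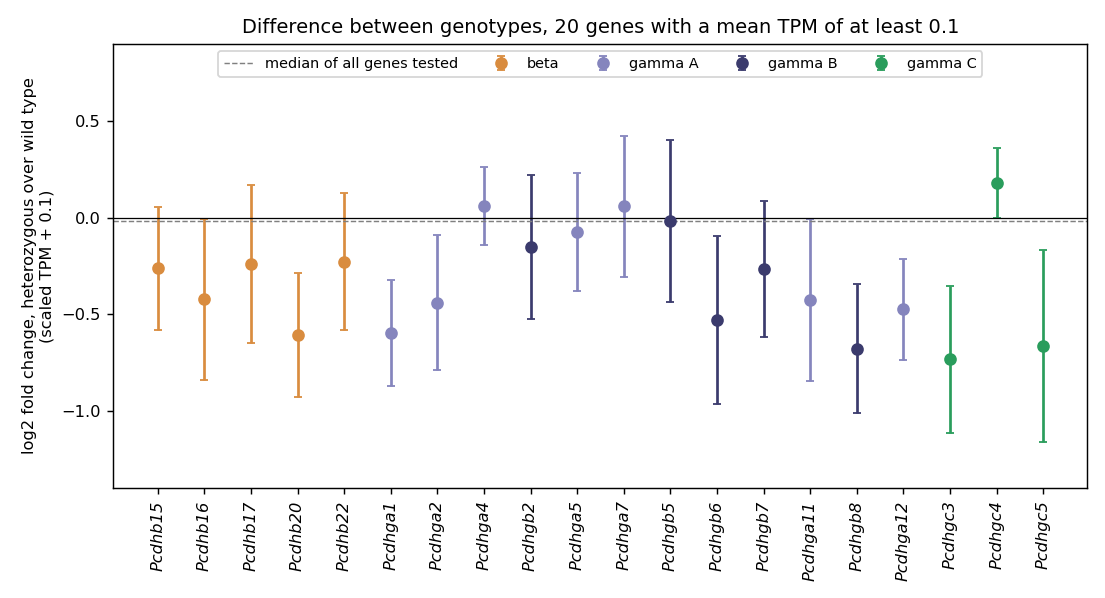
Log2 fold change (heterozygous over wild type, on the log2(scaled TPM + 0.1) scale) with its standard error for the 20 clustered protocadherins whose mean reached 0.1 TPM, coloured by type, in chromosomal order. The points run from -0.73 for *Pcdhgc3* to 0.18 for *Pcdhgc4*, and 17 of 20 lie under 0; none passed the test.

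Genes that act on the protocadherin promoters had no called member either. Of 20 regulators, which comprised *Ctcf*, cohesin and its loaders and release factors, DNA methyltransferases and silencing factors, 18 had a mean of at least 1 TPM, 0 were called, and 7 lay under 0 and 11 over 0 (median log2 fold change 0.05). As deposited all 18 lay under 0 (median -0.33), near the shift of -0.35 of all genes. Cohesin subunits stood at both ends after scaling. *Smc3* had 2.59, 3.48, 1.53 and 1.45 TPM (log2 fold change -0.39, SE 0.14, adjusted p = 0.368), and *Smc1a* 13.1, 16.3, 14.7 and 14.1 TPM (log2 fold change 0.39, SE 0.16, adjusted p = 0.390). The cohesin-associated *Pds5b* had a log2 fold change of 0.30 (adjusted p = 0.453) and the histone methyltransferase *Ehmt2*, the most abundant of the list, one of 0.32 (adjusted p = 0.468). As deposited *Smc1a* was at -0.02, *Pds5b* at -0.07 and *Ehmt2* at -0.10, whereas *Smc3* was at -0.69.

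Neighbouring genes within 500000 bases of the arrays gave 22 tested of 69, with 11 under 0, 11 over 0, a median of 0.01 and 0 called. Among them were *Maskbp3* (log2 fold change 0.46, adjusted p = 0.368), *Arap3* (0.41, adjusted p = 0.430), *Diaph1*, a formin (-0.21, adjusted p = 0.542), and *Ndufa2*, a complex I subunit (0.16, adjusted p = 0.775). These 22 had no common direction after scaling, and as deposited 21 of the 22 lay under 0 (median -0.38), *Arap3* (-0.02) and *Ndufa2* (-0.28) among them. With the lower limits 33 neighbours were tested and 19 lay under 0, beside 51.9% of all genes. Their median was -0.03, beside -0.02 over all genes.

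Other cadherin genes were also compared. Of 12 non-clustered protocadherins, which have their own genes and promoters, 3 were tested and all 3 lay under 0: *Pcdh7* (-0.24), *Pcdh1* (-0.17) and *Pcdh12* (-0.05), with adjusted p of at least 0.494. *Pcdh1* and *Pcdh12* lie within 500000 bases of the gamma array and are also counted among the neighbouring genes above. With the lower limits 6 were tested, all under 0 with a median of -0.33, close to the -0.35 of the clustered genes. Of 34 classical and other cadherins 7 were tested, 5 under 0, with a median of -0.04. *Cdh2*, the N-cadherin of the intercalated disc, had 4.76, 6.81, 2.65 and 2.73 TPM (log2 fold change -0.51, SE 0.15, adjusted p = 0.334), and *Cdh13* a log2 fold change of -0.42 (adjusted p = 0.366). *Cdh5*, the endothelial cadherin and the most abundant, had one of -0.02. *Dchs1*, a large cadherin of planar cell polarity, was at 0.22 (adjusted p = 0.551), but at -0.03 as deposited. Of 17 partners of protocadherin signalling 14 were tested, 11 under 0 with a median of -0.04, and *Wasf2*, a subunit of the WAVE actin-regulatory complex, had 3.54, 3.69, 1.79 and 1.80 TPM (log2 fold change -0.41, SE 0.14, adjusted p = 0.343). The protease *Adam10* was at -0.20 (adjusted p = 0.646) and the GTPase *Rac1*, the most abundant, at -0.06 (adjusted p = 0.878). The kinase *Ptk2b* was at 0.16 (adjusted p = 0.624), but at -0.07 as deposited. None of these lists held a called gene, and as deposited the medians were -0.44, -0.43 and -0.42.

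**Figure D4:**
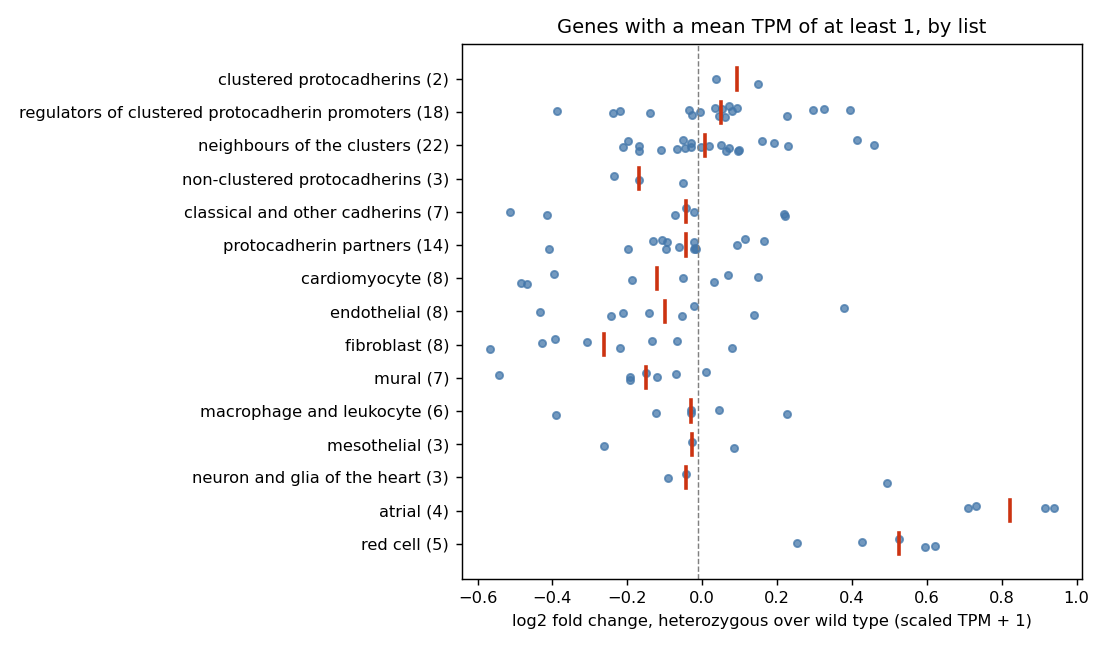
Log2 fold change (heterozygous over wild type, on the log2(scaled TPM + 1) scale) of each gene whose mean reached 1 TPM, by list, with the number of genes in parentheses; red bars are list medians and the dashed line is the median of all genes. The clustered protocadherins (0.15 and 0.04) and their regulators (median 0.05) lie around the line, while the atrial (0.82) and red cell (0.53) lists lie to the right of it.

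Markers of other cell types of the heart were compared on the same scale. Of 15 markers of its nerve and glial cells, 3 had a mean of at least 1 TPM and 1 was at 0 throughout. Of the 3 tested, 2 lay under 0 (median -0.04), as did 6 of 10 with the lower limits (median -0.10). The summed scaled level of the 15 was 8.04, 7.80, 8.97 and 8.86 TPM, and as deposited it was 8.70, 9.88, 7.36 and 8.07 TPM, so that the order of the groups turned with the scaling. Without *Stmn2*, a neuronal gene with 1.47, 1.47, 0.88 and 3.53 TPM, left out after its values were seen, the scaled sums were 6.68, 6.64, 7.89 and 4.99 TPM, and heterozygous heart 2 was the lowest, as in most protocadherins tested. All 8 fibroblast markers were tested, with 7 under 0 and a median of -0.26, and their sums were 135, 182, 110 and 134 TPM. Mural markers lay under 0 in 6 of 7 (median -0.15), with sums of 65.2 to 79.5 TPM in heterozygous and 80.8 to 88.6 TPM in wild-type hearts. Of 8 endothelial markers, 6 lay under 0 (median -0.10), although their sum, dominated by *Egfl7*, was 274 to 278 TPM in wild-type and 306 to 352 TPM in heterozygous hearts after scaling. As deposited the endothelial sums overlapped (301, 347, 251 and 320 TPM). Medians were -0.03 for 6 leukocyte and for 3 mesothelial markers, and -0.12 for 8 cardiomyocyte markers.

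Atrial and red cell RNA varied more. All 4 atrial markers lay over 0 (median 0.82), with sums of 810, 2340, 1910 and 3256 TPM, so that wild-type heart 1 was low. All 5 red cell genes lay over 0 (median 0.53), with sums of 934, 981, 962 and 2104 TPM, and heterozygous heart 2, the heart with the lowest level of most gamma genes tested, held the highest of them. As deposited the 4 atrial markers still lay over 0, whereas 2 of the 5 red cell genes lay under 0. None of the marker genes was called. The part of nerve, fibroblast, mural, endothelial, atrial or blood content in the protocadherin values was not tested.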

How the data were processed

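The authors trimmed reads with Trim Galore, aligned them to mm10 with STAR and estimated expression with RSEM, and deposited TPM for 55401 genes in 4 poly(A)-selected libraries, rounded to 2 decimals. The annotation release is not given in the sources used here. Counts were not used, so the authors' DESeq2 test was replaced. TPM were divided by median-of-ratios factors and tested on log2(TPM + 1) in limma 3.58.1 (R 4.3.3; moderated test with a mean trend, two-sided) for genes whose mean reached 1 TPM, with Benjamini-Hochberg adjustment. The lower limits used 0.1 for both. Positions and shared exons came from GENCODE M21, to which 55141 of 55401 identifiers matched. Single values per library were compared by exact permutation.

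The members were set by symbol alone, but that rule and the gene lists were chosen with earlier results of these data known. Named were the members past the limit of 1 TPM, the 2 highest others of each array, the C-type isoforms, and of each list other than the cell type markers the 3 tested genes with the smallest p and the most abundant one. The 4 libraries are 4 mice. The statistics were tested on simulated data. No sequence of a member is printed.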

Additional observations from a re-analysis of the deposited data

How the results depend on the processing

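With 2 hearts a group, all results rest on few samples, and values below 0.1 TPM are a few rounding steps above 0. Under every alternative run, 0 clustered protocadherins were called. An unadjusted p under 0.05 was found for 2 of 49 with no filter on low values, beside 8.73% of all genes. With the lower limits it was found for 5 of 20 as deposited (25.3% of all genes), for 5 of 20 with mitochondrially encoded genes removed (22.5%) and for 6 of 21 without heterozygous heart 1 (12.2%), a fit that assumes the lone heterozygous heart to vary like the wild-type hearts. A minimum of 5 TPM left no member to test.

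As deposited, 11 genes were called lower and 2 higher over the whole table (3 and 0 after scaling), and 12 and 2 with mitochondrial genes removed and TPM rescaled. No filter gave 0 lower, and the lower limits 4 higher. Leaving out 1 heart gave 3 to 25 lower and 4 to 12 higher. The median of the 2 members tested (0.09) was -0.20 as deposited and -0.17 with mitochondrial genes removed. It was -0.35 over 20 members with the lower limits. With no filter it was -0.00882 over 49 members, where the added 1 TPM draws low genes toward 0. Leaving out 1 heart gave 0.00133 to 0.18 for the 2 members. With mitochondrial genes removed, *Pcdhgc4* was at -0.13 and *Pcdhga4* at -0.20, against -0.21 and -0.20 as deposited. *Pcdhga4* was at -0.02 without wild-type heart 2 and at -0.039 without heterozygous heart 2, with 0.11 the highest value on leaving out 1 heart. Array sums (log2 ratio) were -0.74 for beta and -0.59 for gamma as deposited, -0.60 and -0.47 with mitochondrial genes removed, and on leaving out 1 heart -1.48 to -0.45 for alpha (-1.05 with all, from sums of a few rounding steps), -0.54 to -0.072 for beta and -0.23 to -0.05 for gamma. For the lower limits the median of the members was -0.71 with mitochondrial genes removed, -0.37 after quantile normalisation and -0.52 to -0.22 on leaving out 1 heart. The cause of these changes was not tested. The alternatives for the lower limits, the *Pcdhgc4* share and the gamma sum without *Pcdhgc4* were chosen after seeing the data.

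The replicate numbers pair no mice, and the deviations of same-numbered libraries correlated at 0.10 over 10036 genes. A fit with a replicate block called 8 genes lower and 3 higher. In it no clustered protocadherin was called, and the medians of the members stayed at 0.09 and, with the lower limits, -0.35.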

Other observations

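Between and inside the arrays lie other transcripts that were no members, and the ones below were chosen after their values were seen. The lincRNA *3222401L13Rik*, at chr18:37655451-37661742 just upstream of *Pcdhga1*, had 0.63, 0.62, 0.25 and 0.16 TPM in wild-type hearts 1 and 2 and heterozygous hearts 1 and 2. Both heterozygous values were lower on either scale, and with the lower limits its log2 fold change was -0.92 (SE 0.32, adjusted p = 0.437), so it was not called. *Slc25a2*, a mitochondrial carrier gene between the beta and gamma arrays, had 0.63, 0.53, 0.28 and 0.23 TPM (log2 fold change -0.59, adjusted p = 0.516). Beside it *Taf7*, a subunit of the general transcription factor TFIID, had 0.51, 0.69, 0.41 and 0.37 TPM (log2 fold change -0.14, adjusted p = 0.852). The pseudogene *Gm8242*, in the same stretch, had an estimate of the other sign and overlapping groups. Its values were 0.2, 0, 0 and 0.31 TPM (log2 fold change 0.31, SE 0.89, adjusted p = 0.909). Within the gamma array, *BC037039* was lowest in heterozygous heart 2, as most gamma genes were, with 0.27, 0.48, 0.28 and 0.06 TPM.

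The non-clustered protocadherins below 1 TPM given here were also chosen after their values were seen. Among them *Pcdh18* had 0.49, 0.49, 0.26 and 0.16 TPM (log2 fold change -0.61, SE 0.33, adjusted p = 0.537). Its levels were close to those of *Pcdhb20* in each heart, a likeness picked from many pairs of genes and not tested. *Pcdh17* had 0.24, 0.28, 0.16 and 0.16 TPM (log2 fold change -0.17, SE 0.32, adjusted p = 0.857). *Pcdh19* had 1.26, 0.64, 0.49 and 0.40 TPM (log2 fold change -0.51, adjusted p = 0.638), with overlapping groups after scaling.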
